A study of Homo sapiens with 3 samples.

Results

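Apolipoproteins are the protein part of lipoproteins, the particles that carry cholesterol and triglycerides in blood. The set described here was fixed by name and holds 10 genes, APOA1, APOA2, APOA4, APOB, APOC1, APOC3, APOE, APOH, APOM and APOD, out of 39320 gene rows on primary references, those with no "_" sign in their name. All 10 are protein-coding and each had 1 such row. RNA was measured by RNA-seq, which reads short fragments of cDNA, in 3 libraries of polyadenylated RNA labelled as wild-type HepG2, replicates 1 to 3. HepG2 is an established human liver cancer cell line, and there was no treatment and no second condition, so no comparison between groups could be made. The labels do not say whether the replicates came from separate cultures, and the SD then measures only the spread between these libraries. Levels are given as TPM, which divides the reads of a gene by its length and brings every library to a common sum, so that different genes can be compared.

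In the liver, APOB forms the scaffold of very-low-density lipoprotein, and APOA1 and APOA2 form that of high-density lipoprotein. APOC1, APOC3, APOE and APOA4 are exchangeable proteins that move between particles and set how fast lipases and receptors act on them. APOH, a plasma glycoprotein that binds phospholipids, APOM and APOD belong to other protein families, and APOM and APOD are lipocalins, small barrel-shaped carriers of lipids. Hepatocytes are known as the main source of most of these proteins in plasma, APOA4 comes largely from the intestine, and APOE and APOD are also made in many other tissues.

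Of the 10 apolipoproteins, 7 were listed at 0 in all 3 libraries, 3 were above 0 in all 3, and 0 had at least 1 TPM in every library. The genes listed at 0 were APOA1, APOA2, APOA4, APOB, APOC1, APOC3 and APOH, and those above 0 were APOM, APOE and APOD. Of the protein-coding genes, 19.8% were listed at 0 in every library and 59.5% had at least 1 TPM in every library. Over all rows the shares were 40.7% and 33.8%. The 10 genes together summed to 1.71, 1.49 and 1.66 TPM in replicates 1, 2 and 3.

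**Figure D1:**
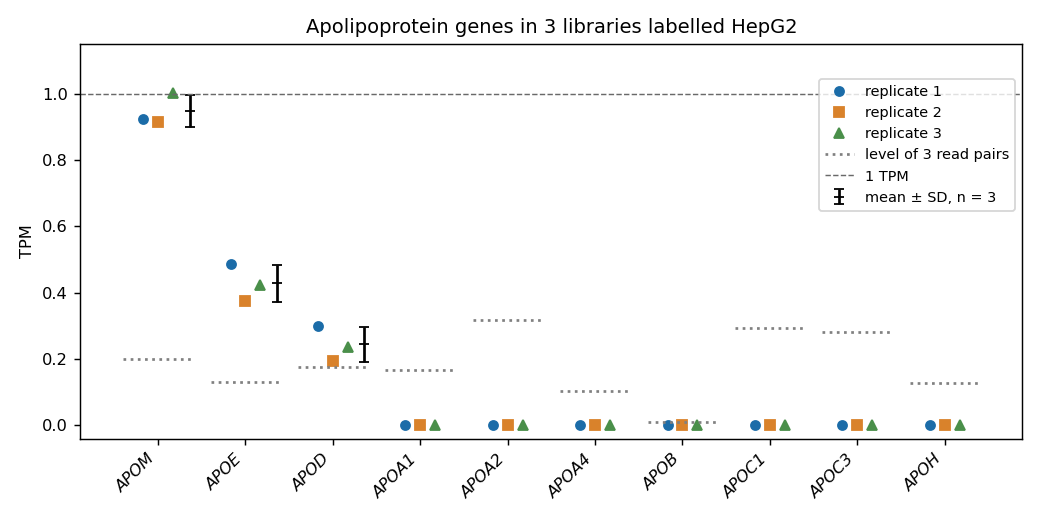
TPM (vertical axis) of the 10 apolipoprotein genes in replicates 1, 2 and 3 of the libraries labelled HepG2, with the mean ± SD (n = 3) of the genes above 0, a dashed line at 1 TPM and a dotted line at the mean over libraries of the level that 3 read pairs would give. The values of APOM, APOE and APOD do not overlap in these libraries, though each rests on few reads, and the other 7 genes lie at 0 in every library.

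The libraries were checked against markers of the labelled cell type. Of 20 genes known to mark hepatocytes, 18 were below 1 TPM in all 3 libraries, 9 were listed at 0 in all 3, and the defining marker ALB, the gene of serum albumin, was among the 9. The list summed to between 34.4 and 36.5 TPM, nearly all of it from VTN (23.3 ± 0.560 TPM) and RBP4 (11.0 ± 0.508 TPM; SD, n = 3). All 16 housekeeping genes on another list had at least 10 TPM in every library. Because the hepatocyte markers go against the label, the libraries are called by their label only, and the part that the identity of the cells has in the values below was not tested. In bulk RNA, fewer cells of a type and less RNA per cell cannot be told apart.

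Sequences before the start sites of 4 genes, from RefSeq on GRCh38.p14, are shown because they allow the 2 genes of this set with the highest levels, APOM and APOE, to be set beside 2 genes listed at 0, APOA2 and APOH. Each run holds the 250 bases before the annotated start, read from its upstream end on the strand of the gene, and capitals mark CpG, a C followed by a G.
APOM (chr6:31655644-31655893, plus strand): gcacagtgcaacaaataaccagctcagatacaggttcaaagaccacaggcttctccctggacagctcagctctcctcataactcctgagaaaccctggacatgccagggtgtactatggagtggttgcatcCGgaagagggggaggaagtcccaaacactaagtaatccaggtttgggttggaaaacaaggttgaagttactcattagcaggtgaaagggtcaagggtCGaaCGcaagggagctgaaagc
APOE (chr19:44905546-44905795, plus strand): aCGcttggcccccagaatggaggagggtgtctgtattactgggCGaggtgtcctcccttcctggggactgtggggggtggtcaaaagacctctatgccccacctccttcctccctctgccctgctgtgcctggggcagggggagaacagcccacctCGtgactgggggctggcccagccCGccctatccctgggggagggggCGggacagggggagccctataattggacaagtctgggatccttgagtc
APOA2 (chr1:161223629-161223878, minus strand): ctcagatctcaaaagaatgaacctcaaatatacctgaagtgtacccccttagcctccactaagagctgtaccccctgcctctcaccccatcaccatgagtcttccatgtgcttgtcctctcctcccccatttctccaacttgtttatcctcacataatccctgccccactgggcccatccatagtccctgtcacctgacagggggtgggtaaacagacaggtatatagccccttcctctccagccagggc
APOH (chr17:66229416-66229665, minus strand): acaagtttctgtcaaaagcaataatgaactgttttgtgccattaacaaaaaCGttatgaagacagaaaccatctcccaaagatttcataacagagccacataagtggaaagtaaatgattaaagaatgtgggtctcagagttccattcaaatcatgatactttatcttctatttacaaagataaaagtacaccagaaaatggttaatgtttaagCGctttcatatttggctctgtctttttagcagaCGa
A CpG occurred 3 times in the window of APOM, 5 times in that of APOE, 0 times in that of APOA2 and 3 times in that of APOH. RefSeq windows were at hand for 6 of the 10 genes, 8 windows in all, since APOE had 3 start sites. The APOM window lies inside the measured row, which begins at 31652410 on chromosome 6, so it precedes a RefSeq start within that row. The APOC1 window also lies inside its row, and those of APOE lie inside or reach into theirs. APOA4 had 6 CpG and APOC1 had 7, and the other APOE windows, which begin at 44905771 and 44906151 on chromosome 19, had 9 and 11. The median of 35116 windows was 11, so that 8 of 8 windows lay at or below it. Among protein-coding genes with a window, the median was 21 CpG in the 9365 genes whose mean reached 1 TPM and 4 CpG in the 2863 genes listed at 0 in every library. These are descriptions without a test. The windows of APOM and APOE, the genes above 0, held 3 to 11 CpG, and those of APOA2, APOA4, APOC1 and APOH, at 0, held 0 to 7. The motif TATAA, searched on both strands, was found in 1 of the 8 windows, on the plus strand of the upstream APOE window, where it begins 31 bases before the start site. It was found in 18.9% of all windows.

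**Figure D2:**
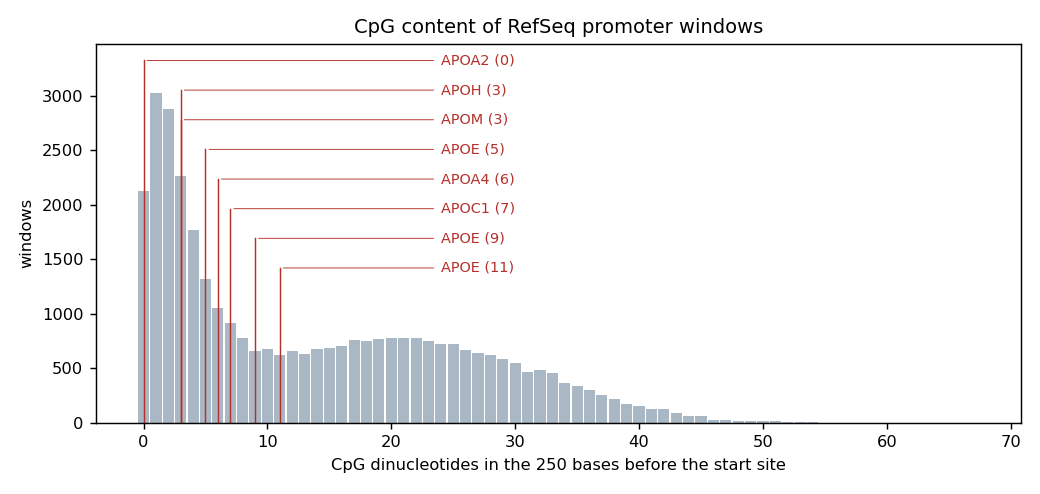
Number of RefSeq promoter windows (vertical axis, 35116 in all) by the count of CpG in the 250 bases before the start site (horizontal axis), with lines and counts at the 8 windows of 6 apolipoprotein genes. The windows hold between 0 and 11 CpG, in the left part of the distribution.

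The precision of these low values was worked out from the tables, which give coverage, the mean depth over a gene, beside FPKM and TPM. For genes with 1 exon, coverage times length should give the number of aligned bases. This was checked on rows above 0 and under 5000 bases whose coverage divided by FPKM was close to the highest in the library. There were 553, 568 and 564 such rows in replicates 1, 2 and 3. The product was whole within 0.01 for 80.3%, 79.2% and 79.3% of them, and not for the rest. Coverage divided by FPKM reached at most 13.3, 12.8 and 11.5 in the same order and is larger in a deeper library, so replicate 3 was the least deep. With these ratios, the TPM that 3 pairs of 150-base reads would give was computed for each gene from the length of its canonical GENCODE v44 transcript. These limits cover counting error only and hold where a 0 stands for no reads.

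APOB, the scaffold of low-density lipoprotein, was listed at 0 TPM in replicates 1, 2 and 3. Its transcript of 14121 nt is by far the longest of the set, and 3 read pairs would have given it 0.0102, 0.0104 and 0.0116 TPM, so its 0 is the closest limit among the 10 genes. On GRCh38 its row runs from 21001429 to 21044073 on the minus strand of chromosome 2, and the nearest rows on both sides, LOC101928271 and TDRD15, were listed at 0 too. APOH was also listed at 0 in every library, with a limit of 0.122, 0.125 and 0.139 TPM. Its neighbours on chromosome 17, CEP112 and PRKCA, had 3.75 ± 0.118 and 12.6 ± 0.816 TPM (SD, n = 3).

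Both structural proteins of high-density lipoprotein were listed at 0. APOA1, which activates the enzyme LCAT on the particle, was listed at 0 in all 3 libraries against a limit of 0.160, 0.163 and 0.182 TPM. APOA2 was listed at 0 against 0.303, 0.309 and 0.345 TPM, the widest limit of the set, since its transcript of 474 nt is the shortest. The row of TOMM40L, which begins 2310 bp beyond APOA2 on chromosome 1, had 17.1 ± 1.06 TPM (SD, n = 3).

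APOA1 lies in a cluster with APOC3, an inhibitor of lipoprotein lipase, and APOA4, a protein of chylomicrons, within 17.25 kb of chromosome 11. APOC3 was listed at 0 against limits of 0.268, 0.274 and 0.306 TPM, and APOA4 against 0.0976, 0.0997 and 0.111 TPM in replicates 1, 2 and 3. Of the 8 rows that lie within or reach into 100 kb of this cluster, the 4 at 0 in every library were APOA5, APOA4, APOC3 and APOA1. Over all rows, 40.7% were at 0 in every library, so this share is not far from that of any rows. The antisense row APOA1-AS, which overlaps APOA1 over 1834 bp, had 0.260, 0.190 and 0.151 TPM. Outside the apolipoprotein rows, BUD13 had 12.7 ± 1.08, ZPR1 15.0 ± 0.515 and SIK3 13.4 ± 0.234 TPM (SD, n = 3). The zeros thus formed a run of 4 rows between ZPR1 and SIK3, with APOA1-AS overlapping APOA1 on the other strand. The sources used here do not give the strand setting. Whether reads over APOA1 were assigned to APOA1-AS was not tested, and the limit of APOA1 does not cover this.

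The APOE cluster on chromosome 19 also held a run of rows at 0. APOC1, an exchangeable protein that slows the clearance of particles, was listed at 0 in all 3 libraries against limits of 0.279, 0.285 and 0.319 TPM. Of the 11 rows within or reaching into 100 kb of APOE and APOC1, 5 were at 0 in every library, against 40.7% of all rows. These were APOC1, its pseudogene APOC1P1, APOC4, APOC2 and the read-through row APOC4-APOC2, which overlaps both APOC4 and APOC2. TOMM40, which ends 2059 bp before APOE on the same strand, had 329 ± 5.93 TPM, and CLPTM1, on the other side of the cluster, had 96.1 ± 3.82 TPM (SD, n = 3). APOE was therefore the only row above 0 between them.

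**Figure D3:**
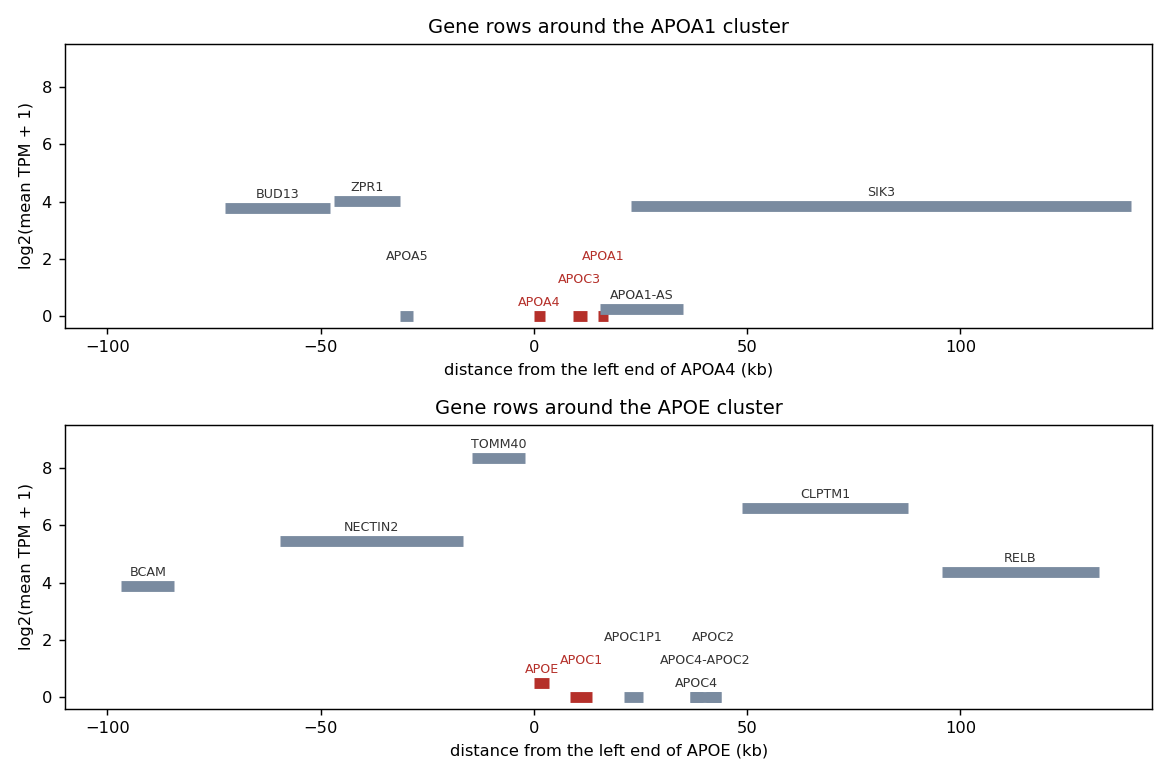
Rows around the APOA1 cluster (top) and the APOE cluster (bottom), drawn as bars at their distance in kb from the left end of APOA4 or APOE (horizontal axis, with SIK3 cut at the right edge) and at log2(mean TPM + 1) over 3 libraries (vertical axis). The described apolipoproteins, in red, lie at or near 0, as do the other apolipoprotein rows in grey, between BUD13, ZPR1 and SIK3 or TOMM40 and CLPTM1, which are above 10 TPM.

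APOM, the lipocalin that carries sphingosine-1-phosphate on high-density lipoprotein, had the highest level of the set, with 0.923, 0.916 and 1.00 TPM in replicates 1, 2 and 3. Its mean was 0.947 ± 0.0483 TPM or 0.451 ± 0.0253 FPKM (SD, n = 3), and only replicate 3 reached 1 TPM. By its mean it exceeded 39.3% of the protein-coding genes. Its row, from 31652410 to 31658210 on the plus strand of chromosome 6, lies wholly within that of BAG6 on the minus strand, which had 85.8 ± 2.36 TPM (SD, n = 3). In GENCODE v44, 136 of the 1237 exon bases of APOM are shared with exons of BAG6, and 0 of the 761 bases of its canonical transcript are. The strand setting is not given in the sources used here, so reads from the shared bases cannot be told apart, and their part in the level of APOM was not tested. The tables also list APOM on 6 alternate references, and all 6 rows were at 0 in every library, as were all 3929 rows on alternate references.

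APOE, the ligand through which remnant particles are taken up by cells, had 0.486, 0.376 and 0.423 TPM in replicates 1, 2 and 3. The mean was 0.428 ± 0.0551 TPM or 0.204 ± 0.0249 FPKM (SD, n = 3), more than 35.7% of the protein-coding genes. Each library lay above the level of 3 read pairs, which was 0.123, 0.126 and 0.140 TPM. Macrophages and astrocytes are known to make APOE, so their markers were read beside it. Of 6 macrophage markers, CD68 was the 1 with at least 1 TPM in every library, PTPRC, CD163 and TYROBP were listed at 0 in all 3, and the list summed to between 9.34 and 11.0 TPM. Of 5 astrocyte markers, 0 had at least 1 TPM in every library and GFAP, AQP4, ALDH1L1 and SLC1A2 were listed at 0 in all 3, with a sum of 0 to 0.0404 TPM. Of 6 enterocyte markers, which bear on APOA4, the fatty acid binding proteins FABP1 and FABP2 and the regulator CDX2 were listed at 0, and the list summed to between 18.7 and 20.7 TPM, of which ALPI made 20.0 ± 1.13 TPM (SD, n = 3). Of 8 mesenchymal markers, 4 had at least 1 TPM in every library and SPARC was listed at 0. Their sum was 697 to 788 TPM, of which VIM, known in many cell types, made 749, 672 and 661 TPM in replicates 1, 2 and 3. Their part in the level of APOE was not tested.

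APOD, which binds arachidonic acid and is, like APOM, a lipocalin, had 0.300, 0.195 and 0.237 TPM in replicates 1, 2 and 3. Its mean was 0.244 ± 0.0529 TPM or 0.116 ± 0.0244 FPKM (SD, n = 3), above that of 33.3% of the protein-coding genes. Its coverage times a length of 862 nt, which is that of a GENCODE v44 transcript of APOD, gave 1622, 1032 and 1122 aligned bases, whole within 0.01 in each library. This equals 5.4, 3.4 and 3.7 read pairs of 300 bases, so the level of APOD rests on very few reads. A length of 431 nt also gave whole numbers, but it is not that of an annotated transcript. PPP1R2, the nearest row on the left on chromosome 3, had 47.7 ± 3.46 TPM (SD, n = 3), and the nearest on the right, LOC107986029, was listed at 0.

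The same estimate for the genes with several transcripts, made from FPKM and the canonical transcript, gave 15, 14 and 14 read pairs for APOM and 12, 9.0 and 9.0 for APOE in replicates 1, 2 and 3. Coverage divided by FPKM, as a share of the library's maximum, differed between the genes, and APOD was at 1.00 in each replicate, APOM at 0.583, 0.577 and 0.583, and APOE at 0.628, 0.691 and 0.691. The coverage was 3.37, 3.24 and 3.22 for APOM, 1.91, 1.59 and 1.61 for APOE, and 1.88, 1.20 and 1.30 for APOD.

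The order of levels was APOM, APOE and APOD in 3 of 3 libraries, and the ranges of neighbours in this order did not overlap. On the log2(TPM + 1) scale, APOM exceeded APOE by 0.45 ± 0.07 and APOE exceeded APOD by 0.20 ± 0.01 (SD, n = 3). At these low levels the pseudocount of 1 shrinks both the differences and their SD. APOE also rests on 9.0 to 12 read pairs and APOD on 3.4 to 5.4. Neither the small SD nor the separate ranges therefore measure how certain their order is. With a pseudocount of 0.1 the mean differences were 0.99 and 0.62. An exact permutation test that flips the signs of these differences (two-sided, n = 3) gave p = 0.25 for both, and 0.25 after Benjamini-Hochberg adjustment over the 2 pairs. No smaller p can be had from 3 libraries. The genes listed at 0 cannot be ordered among themselves. For APOA2, APOC1 and APOC3 the level of 3 read pairs in 1 library, between 0.268 and 0.345 TPM, lay above the mean of APOD. Taken 1 library at a time, this limit does not separate them from APOD. A limit over the 3 libraries together was not computed, and it too would depend on what zeros of 6 decimals stand for. The limits of APOB and APOH, whose zeros have 1 decimal in every library as described with the zeros, lay under the mean of APOD. Those of APOA4 and APOA1 did too, but hold only if their zeros of 6 decimals stand for no reads, which was not tested.

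Between libraries, the coefficient of variation was 5.10% for APOM, 12.9% for APOE and 21.7% for APOD, and its median over the 1172 protein-coding genes with means from that of APOD to that of APOM was 19.9%. Over the 8004 protein-coding genes whose mean reached 10 TPM, it was 4.77%. The levels rest on about 14 to 15 read pairs for APOM, 9.0 to 12 for APOE and 3.4 to 5.4 for APOD. With so few reads, a coefficient from 3 libraries is itself uncertain and cannot be read as the precision of a level. The low value of APOM therefore does not make it as well measured as genes above 10 TPM. The highest library exceeded the lowest 1.09-fold for APOM, 1.29-fold for APOE and 1.54-fold for APOD. The range of log2(TPM + 1) was 0.06, 0.11 and 0.12 in the same order, against a median of 0.18 in that band. The pseudocount of 1 shrinks this range more at lower levels, and APOD is at the lower edge of the band. Its smaller range therefore cannot be read as less spread, and its coefficient of variation was above the median.

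The tables write a 0 in 2 ways, with 1 decimal or with 6, and this was examined because a 0 in a table without counts can be a failed estimate. In replicates 1, 2 and 3, the 8357, 7937 and 8212 rows with a 0 of 1 decimal overlapped a row above 0 in 0 cases. Of the 10057, 10363 and 10588 rows with a 0 of 6 decimals, 39.2%, 36.8% and 37.9% did. APOB and APOH had the first form in all 3 libraries, and APOA1, APOA2 and APOC1 the second. APOA4 and APOC3 had the first form in replicate 1 and the second in replicates 2 and 3. What the second form stands for is not given in the sources used here, and whether it holds reads that were assigned to no transcript was not tested.

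Other genes that carry an apolipoprotein name or ride on lipoproteins were read from a list of 17. Of these, 6 had at least 1 TPM in every library and 7 were listed at 0 in all 3, namely APOA5, APOC2, APOC4, APOF, APOL4, LPA and SAA4. CLU, also called apolipoprotein J and known as an extracellular chaperone of many tissues, had 871, 923 and 930 TPM, a mean of 908 ± 32.2 TPM (SD, n = 3). APOO, a subunit of the complex that shapes mitochondrial cristae, had 72.9 ± 2.05 TPM and its relative APOOL 12.2 ± 1.31 TPM, and the intracellular APOL2 had 54.0 ± 0.865 TPM (SD, n = 3). SAA1, an acute-phase protein of high-density lipoprotein, had 2.20 ± 0.284 TPM (SD, n = 3), and this value is uncertain because SAA1 and SAA2 are near-identical copies that can share reads. The list summed to 1030.4, 1074 and 1082 TPM in replicates 1, 2 and 3, mostly from CLU.

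**Figure D4:**
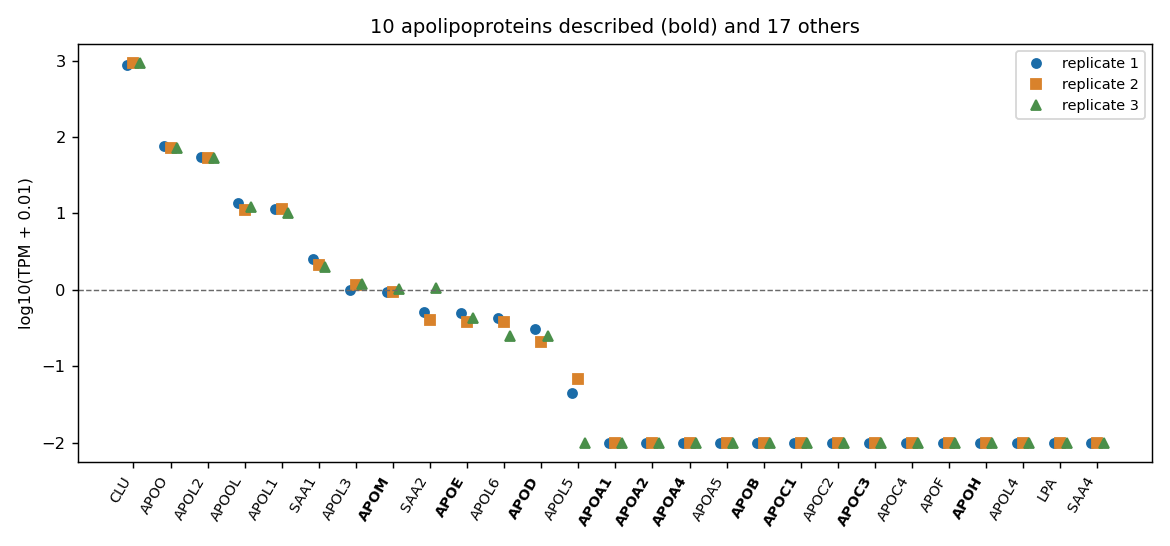
log10(TPM + 0.01) in each library (vertical axis) of the 10 apolipoproteins described, in bold, and the 17 others, ordered by mean, with a dashed line at 1 TPM. CLU, APOO, APOL2, APOOL and APOL1 stand above 10 TPM, and 14 genes lie at the bottom in every library.

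The genes that assemble, bind and remodel lipoproteins were measured beside the apolipoproteins, from 6 lists of 93 genes in all, the 17 above included. Of these, 60 had at least 1 TPM in every library, or 64.5%, close to the 59.5% of protein-coding genes. Their median of mean TPM was 9.45, against 4.91 over the protein-coding genes and 0 over the 10 apolipoproteins.

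Of 20 genes of assembly and secretion, 17 had at least 1 TPM in every library. The highest were the chaperones of the endoplasmic reticulum CALR with 788 ± 9.79, HSPA5 with 606 ± 22.2 and P4HB with 552 ± 15.8 TPM (SD, n = 3). P4HB is also the partner of MTTP, the protein that loads lipid onto APOB during its synthesis. MTTP was listed at 0 in all 3 libraries, as was TM6SF2, a further factor of this loading. PRAP1, a further lipid-binding protein of the list, was the other gene below 1 TPM, with 0.370 ± 0.130 TPM (SD, n = 3).

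Of 16 receptors and adaptors, 12 had at least 1 TPM in every library. BSG, a membrane glycoprotein described as a receptor for APOD, had 633 ± 11.2 TPM and SCARB1, the receptor for high-density lipoprotein, had 84.1 ± 5.98 TPM (SD, n = 3). LRP1, a receptor for APOE, had 42.1, 41.6 and 38.3 TPM in replicates 1, 2 and 3, a mean of 40.7 ± 2.09 TPM (SD, n = 3). The lowest was LRP2, with 0.00302, 0.00306 and 0 TPM. LRP1 was thus measured well above the level of its ligand APOE in each library.

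Of 17 lipases, transfer proteins and plasma enzymes, 7 had at least 1 TPM in every library. LPL, the lipase that APOC3 inhibits, had 131 ± 10.2 TPM, PON2, an intracellular paraoxonase, had 106 ± 2.85 TPM and LIPA, the lysosomal acid lipase, had 77.8 ± 2.15 TPM (SD, n = 3). LCAT, which APOA1 activates, had 8.72 ± 0.550 TPM (SD, n = 3). PON3, GPIHBP1 and LIPG were listed at 0 in all 3 libraries.

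Of 9 genes of lipid efflux, 6 had at least 1 TPM in every library. The highest were NPC2 with 83.0 ± 1.02, NPC1 with 26.1 ± 1.29 and STARD3 with 15.5 ± 1.20 TPM, all of which handle cholesterol in late endosomes and lysosomes (SD, n = 3). ABCA1, the transporter that gives lipid to APOA1, had 1.29 ± 0.112 TPM (SD, n = 3), and ABCG8 was listed at 0. Of 14 lipid-sensing regulators, 12 had at least 1 TPM in every library. SREBF1 had 96.6 ± 2.26, SREBF2 71.1 ± 3.93 and RXRA 70.4 ± 1.96 TPM (SD, n = 3), and these are regulators of fatty acid synthesis, of cholesterol synthesis and uptake, and the partner of many lipid-sensing nuclear receptors. NR0B2, a repressor of bile acid synthesis, was listed at 0 in all 3 libraries.

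**Figure D5:**
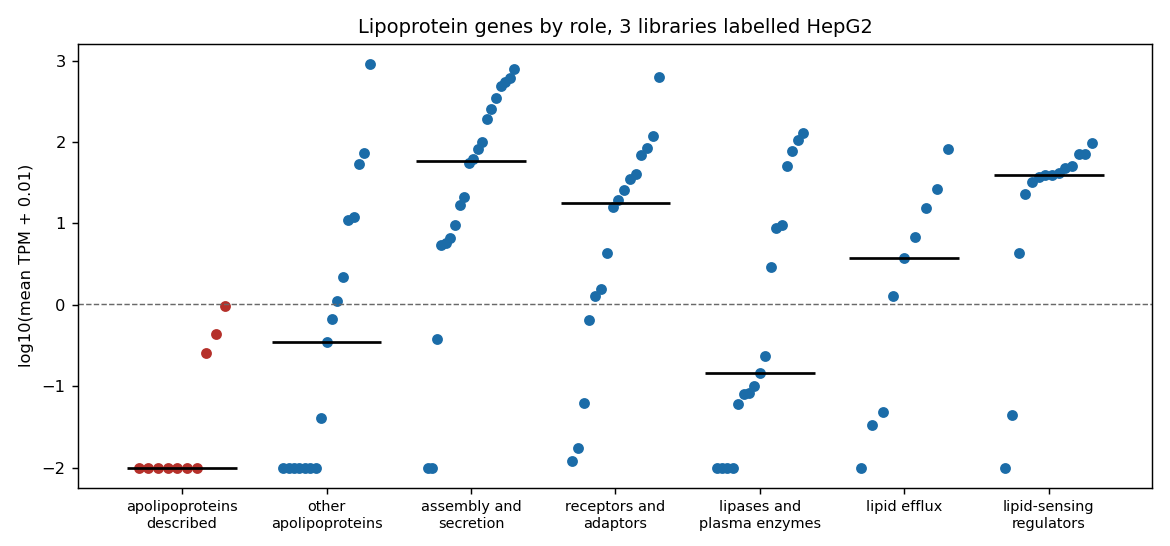
log10(mean TPM + 0.01) over 3 libraries (vertical axis) of each gene, by role, with black bars at the medians and a dashed line at 1 TPM. The 10 apolipoproteins, in red, all have means below 1 TPM. The medians are 58.8 TPM for assembly, 39.5 for regulators, 17.6 for receptors, 3.71 for lipid efflux, 0.343 for the other apolipoproteins and 0.137 for plasma enzymes.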

How the data were processed

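RNA-seq of 3 libraries labelled HepG2 was analysed. According to the paper's methods and the submitters' processing notes, 150 bp paired-end reads were filtered with FastQC 0.11.8 and Trim Galore 0.6.2 and mapped to GRCh38 with STAR 2.6.1a. StringTie is named without its role. The annotation is not given in the sources used here. The authors deposited 1 table per library. The authors deposited coverage as unscaled mean depth over a gene. The FPKM deposited by the authors is scaled for length and library size, and the TPM deposited by the authors has a fixed sum.

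Rows with equal names and coordinates in the 3 tables were joined, which kept 43389. Biotypes came from RefSeq (GRCh38.p14) by symbol for 35978 of 39320 rows, and transcripts from GENCODE v44. The tables hold no counts, so no counting interval is given. Log values used a pseudocount of 1. Neighbours in level were compared within libraries by an exact permutation of signs (two-sided). This had been set for genes with at least 1 TPM in every library, of which there were 0, and was run on genes above 0. The members and lists were chosen with earlier results of these data known. The genes named were the members, the 3 highest, the lowest and others with at least 1 TPM in every library of each list, and the rows beside a member, apart from some genes that are not reported here. The further rows of both clusters, PRAP1 and the marker genes named were chosen after their values were seen. A gene most like each member was to be named only for members with at least 1 TPM in every library, so none was. The range between libraries was tested on made-up data. Alternatives were leaving out each replicate, other scalings, limits, pseudocounts and measures, and rows on further references. The level of 3 read pairs, the pairs of genes above 0 and the writing of zeros were added after the data had been seen. Python 3.11.15, numpy 2.4.6, pandas 2.3.3, statsmodels 0.14.6 and matplotlib 3.10.9 were used.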

Additional observations from a re-analysis of the deposited data

How the results depend on the processing

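The number of apolipoproteins with at least 1 TPM in every library was 0. It was 1, APOM, with TPM rescaled after leaving out the genes of the mitochondrial genome, which multiplies every other gene by about 1.25, and 3 with a minimum of 0.1 TPM. It stayed at 0 with each replicate left out, with median-of-ratios scaling, with FPKM and with a minimum of 10 TPM. The last 2 could not have raised it, since FPKM is lower than TPM in each library and 10 TPM is a stricter limit. Under the rescaling, the means were 1.19 TPM for APOM, 0.536 TPM for APOE and 0.305 TPM for APOD. The 7 genes listed at 0 were 7 with each replicate left out and with coverage in place of TPM. Leaving out a replicate could not have changed this number, since the other members were above 0 in each library. Coverage comes from the same reads as TPM and is no separate check, and scaling cannot change a 0. The order of APOM, APOE and APOD held under each alternative, with log2 differences of 0.27 to 0.99 and 0.11 to 0.62. As the order was the same in each library, leaving out a replicate, FPKM or another pseudocount could not have reversed it. Only coverage could have, and it gave differences of 0.66 and 0.14. With each replicate left out, the means ranged from 0.919 to 0.963, from 0.399 to 0.454 and from 0.216 to 0.268 TPM. The lipoprotein genes with at least 1 TPM in every library numbered 60, and 60 or 61 under the alternatives that kept this minimum. With a minimum of 0.1 TPM there were 66, and with 10 TPM 45. The count of apolipoproteins with a log2 range above 1 was 0, but no mean reached 1 TPM, so this count bears on nothing. No paired analysis was possible because there are no groups of samples to pair, and genes were compared within libraries only. The level of 3 read pairs limits a gene listed at 0 only where the 0 stands for no reads, which was not established for zeros of 6 decimals.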
